A study of Mus musculus with 36 samples.

Results

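Ikaros and control cells were compared at 12 h by DNase-seq, over all 52788 DNase hypersensitive sites (DHS) of the table and in 6 of its 36 libraries. The 6 libraries were chosen by their labels, as the 3 replicates of the Ikaros line and the 3 of the control line collected 12 h after induction, and no DHS was left out. Both lines were made from B3, a mouse pre-B cell line. The Ikaros line carried a retroviral vector for wild type Ikaros with a haemagglutinin tag, joined to ERt2, the part of the estrogen receptor that binds hormone. The vector also expressed GFP from an IRES, and the control line carried it without Ikaros. Both lines were given 4-hydroxytamoxifen, at 0.5 µM per the labels, which name it for every library. The protocol text of the labels puts its addition at 2 h before harvest in all groups, while the description of these libraries says 12 h, which is the time used here. According to the methods, cells of the 0 h groups were left without it and obtained in a separate collection. Each line is a single transduced cell population kept as a line, and what differed between the lines before the drug was added is part of every difference given here. Replicates 4, 5 and 6 are batches 11, 12 and 13 in the labels, at 0 h as at the other times. The separate collection at 0 h is thus stated by the methods alone. The p-values rest on the spread between replicate libraries, pooled over all 36, that was left after the authors' noise correction. How far that correction lowered the p-values was not tested.

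Ikaros, encoded by Ikzf1, is a zinc finger transcription factor that B-cell progenitors need to stop dividing and to go on from the large, cycling pre-B stage to the small, resting one. It binds DNA at GGGAA cores and recruits chromatin remodelling complexes, so that some of its target sites close and others open. DNase I cuts DNA where nucleosomes are absent or displaced, and the level of a DHS, here log2 of the read density scaled to DHS length and library size (log2 RPKM), is a measure of how open that site was. A level is a mixture over all cells of a culture, so more cells with an open site and a more open site in each cell cannot be told apart.

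The sequences of 8 DHS carry the patterns described below. All are from GRCm38, the assembly also called mm10, in the direction of the plus strand, and whether the table's start counts from 0 or 1 is not stated. In the first the capitals mark a transfer RNA gene of the RefSeq annotation, and this DHS was lower in Ikaros cells.
chr13:21275939-21276077, between genes, with n-TTtgt4: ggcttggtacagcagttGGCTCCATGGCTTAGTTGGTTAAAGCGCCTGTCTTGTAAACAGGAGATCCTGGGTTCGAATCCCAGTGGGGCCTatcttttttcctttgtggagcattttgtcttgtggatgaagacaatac
In the next 3, also lower in Ikaros cells, the capitals mark matches to the Ebf1 motif CCCNNGGG, the Ikaros motif TGGGAA or the Ets motif CGGAAG on either strand.
chr2:170583305-170583435, intron of 4930470P17Rik: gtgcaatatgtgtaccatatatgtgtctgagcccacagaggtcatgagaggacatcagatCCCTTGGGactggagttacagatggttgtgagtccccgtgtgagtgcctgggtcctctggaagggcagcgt
chr17:35201968-35202170, Tnf promoter: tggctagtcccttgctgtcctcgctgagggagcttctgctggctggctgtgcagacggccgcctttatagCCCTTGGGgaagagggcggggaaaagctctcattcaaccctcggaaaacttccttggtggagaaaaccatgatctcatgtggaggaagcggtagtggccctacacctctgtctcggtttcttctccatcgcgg
chr17:35870222-35870431, intron of Ppp1r18: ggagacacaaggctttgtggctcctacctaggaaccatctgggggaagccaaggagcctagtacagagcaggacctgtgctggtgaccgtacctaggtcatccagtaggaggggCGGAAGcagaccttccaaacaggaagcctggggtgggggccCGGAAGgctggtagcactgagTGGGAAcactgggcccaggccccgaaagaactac
The last 4 were higher in Ikaros cells. Their capitals mark matches to the Ikaros motif, the Runx motif TGTGGT or the core of the CTCF motif, taken as CCA and GGC on either side of AG, each parted from AG by 2 free bases. In the Mef2c intron the matches for Runx and for the CTCF core overlap.
chr13:83656921-83657053, intron of Mef2c: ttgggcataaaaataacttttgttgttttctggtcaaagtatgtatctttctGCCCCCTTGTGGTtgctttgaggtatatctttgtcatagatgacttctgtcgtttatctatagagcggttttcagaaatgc
chr1:94053545-94053675, Pdcd1 promoter: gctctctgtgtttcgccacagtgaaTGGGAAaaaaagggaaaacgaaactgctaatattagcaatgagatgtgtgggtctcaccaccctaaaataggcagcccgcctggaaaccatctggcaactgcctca
chr3:3502718-3502848, between genes: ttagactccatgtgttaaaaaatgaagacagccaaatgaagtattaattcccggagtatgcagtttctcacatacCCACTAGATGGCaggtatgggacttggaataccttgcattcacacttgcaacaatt
chr6:14839030-14839163, between genes: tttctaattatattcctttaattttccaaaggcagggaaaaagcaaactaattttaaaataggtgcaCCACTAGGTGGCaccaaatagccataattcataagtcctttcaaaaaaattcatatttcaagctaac

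Against control, 468 DHS were more open and 226 less open in Ikaros cells at 12 h. These are 0.887% and 0.428% of the 52788 DHS tested, 1.31% together (limma on all 36 libraries, Benjamini-Hochberg adjusted p under 0.05). The DHS that gained were mostly introns and intergenic sites of low level and low GC content, and the DHS that lost were of high level and high GC content. Differences among DHS called higher ran from 0.52 to 2.77 on the log2 scale (median 1.32), and among those called lower from -1.54 to -0.49 (median -0.80). In 465 of the 468 and in 225 of the 226, the 3 Ikaros values all lay on 1 side of the 3 control values. That happened in 22.7% of all DHS.

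How many DHS were called depended on single libraries. Without Ikaros replicate 4, 5 or 6 of 12 h, 97, 159 and 25 DHS were called, and without control replicate 5, 243. Without control replicate 4 the count was 686 but the split turned, with 306 higher and 380 lower, and without control replicate 6 it was 641, with 547 and 94. When limma was fitted to the 6 libraries of 12 h alone it called 0 DHS. An unadjusted p under 0.05 was then found at 8568 DHS, against 8317 in the fit of all libraries. Control libraries varied more than Ikaros libraries. The SD between replicates had a median over DHS of 0.338 in control and 0.200 in Ikaros cells, and it was larger in control cells at 74.6% of DHS.

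The direction of the difference moved with the place and the base composition of a DHS. Of the DHS called higher, 5.77% were at promoters (within 1000 bp of an annotated start), against 35.4% of those called lower and 25.9% of all DHS. Promoters had a median difference of -0.11, which turned to 0.03 after the removal of trends described below. Exons had a median of -0.0046, introns 0.15 and intergenic DHS 0.14, and after that removal -0.02, 0.02 and 0.0022. Over the 4 equal groups by GC content the medians fell from 0.38 in the lowest to 0.12, -0.04 and -0.14 in the highest, and 366 of the 468 DHS called higher were in the lowest. Level moved with the difference as well, since 192 of the 226 DHS called lower were in the highest of 4 equal groups by mean level and 250 of those called higher in the lowest. The order of the GC groups was the same in all 3 replicate pairs.

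**Figure D1:**
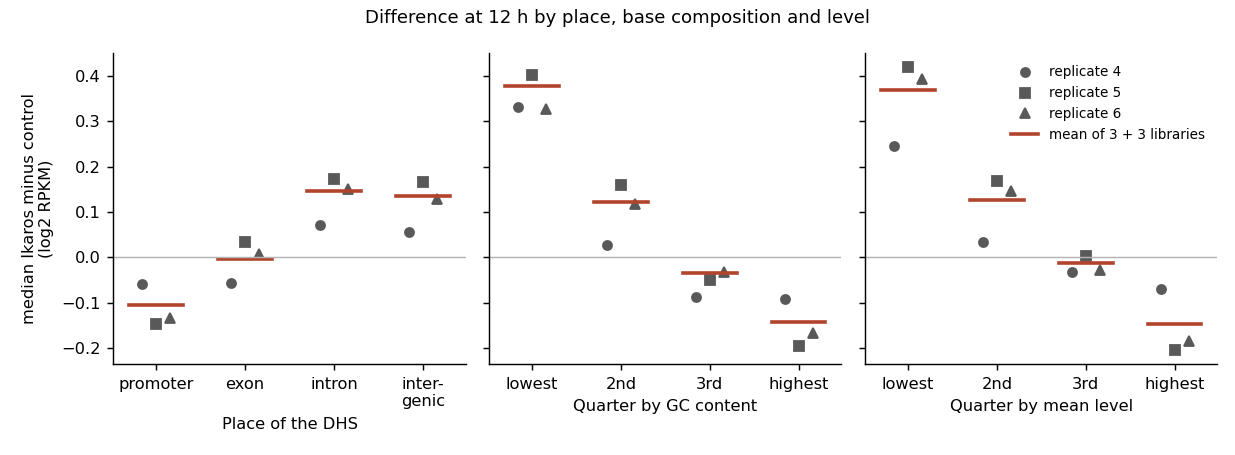
Median difference between Ikaros and control at 12 h (log2 RPKM) by place of the DHS and by 4 equal groups of GC content and of mean level. Grey points are the medians of the 3 replicate pairs and red lines those of the group means. The line falls from 0.38 to -0.14 from the lowest to the highest group by GC content.

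Because level, GC content and width move together with the difference, the fit was repeated on values from which each library's trend with these was removed. It called 71 DHS higher and 58 lower. Of the calls on the deposited values, 47 of 468 higher and 41 of 226 lower were among them, with the same direction. Whether the trends are of the cells or of the libraries was not tested. Centring each library on its median gave 279 higher and 217 lower, fitting without an intensity trend 635 and 191, and leaving out the lowest 25% of DHS by mean level 191 and 188, so the share of calls that were higher ran from 50.4% to 76.9% over these 3 settings.

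Ikzf1 itself had the DHS with the smallest adjusted p, and it lay in an exon. Of 14 DHS within the gene, 6 overlapped exons and 8 lay in introns. The DHS over the last coding exon (chr11:11768688-11769688, exon 7 of transcript Ikzf1-201, 698 coding bases) had levels of 5.63, 5.49 and 5.18 in the Ikaros libraries and 3.29, 2.93 and 1.92 in the control libraries. The lines were far apart, with a difference of 2.72 (SE 0.32, limma adjusted p = 0.000116). A further coding DHS (chr11:11748163-11748716) differed by 1.98 (SE 0.27, adjusted p = 0.000415). The other 4 exonic DHS were between 0.92 and 1.62 higher without passing the threshold, and the 8 intronic DHS lay between -0.43 and 0.58, none of them called. Both called exonic DHS differed at 0 h too, by 3.61 and 2.72. The vector of the Ikaros line holds the Ikaros coding sequence, so reads from the vector and from the gene's own exons cannot be told apart here.

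**Figure D2:**
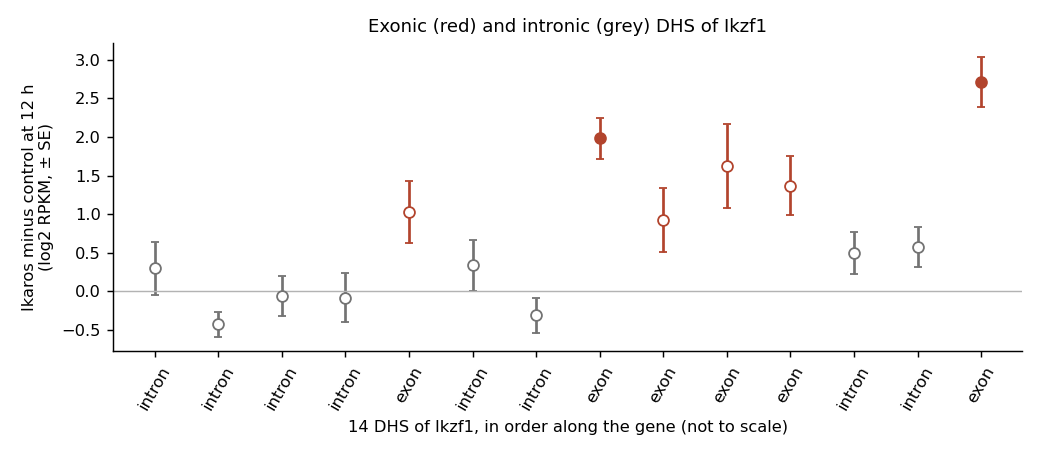
Difference between Ikaros and control at 12 h (log2 RPKM, with the SE from limma) at the 14 DHS of Ikzf1, in order along the gene and not to scale. Red marks DHS that overlap an exon and grey those in introns, and filled points passed the threshold. All 6 exonic points lie above all 8 intronic ones.

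DHS that hold a transfer RNA gene were less open in Ikaros cells almost throughout. Transfer RNA genes are short, are transcribed by RNA polymerase III and are kept free of nucleosomes where they are active. These DHS were taken up after one of the largest losses was seen to hold such a gene. Of 408 transfer RNA genes in the RefSeq annotation, 162 lay in 147 DHS. Of these DHS, 138 (93.9%) had a negative difference, against 45.2% of all DHS. The median was -0.41 and the range -1.44 to 0.39, where the median of all DHS was 0.05. In 73 of them (49.7%) the 3 Ikaros values were below all 3 control values, against 8.72% of all DHS. The threshold was passed by 19, all lower, and those 19 were 8.41% of the DHS called lower, while 0.278% of all DHS hold a transfer RNA gene. On the values freed of trends, 3 of these 19 were also called.

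The 106 of these DHS that were not at an annotated promoter had a median of -0.43, where the median of all DHS away from promoters was 0.13. Their medians in the 3 replicate pairs were -0.50, -0.30 and -0.53. Removing trends left -0.38 and quantile normalization -0.30. For all 147 the corresponding values were -0.50, -0.26 and -0.48 in the pairs, -0.36 and -0.27, and leaving out single libraries of 12 h gave -0.49 to -0.31. At the other times, 0, 2, 6, 18 and 24 h, the median difference of the 147 was 0.20, -0.32, -0.25, -0.47 and -0.44. It was above 0 in the 0 h cells, collected separately by the methods, and below 0 at each later time. The 12 group means of the corrected table span 6 dimensions where 11 are possible, so these times are not independent measurements. The 19 called DHS held 22 genes for transfer RNAs of 13 amino acids, by the letters in their symbols. Copies of these genes are alike in sequence, and the mapping options given in the methods keep only reads with a single place of alignment.

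The clearest single case away from promoters, chosen after its values were seen, was the DHS with n-TTtgt4 printed first above. Its levels were 4.28, 4.25 and 4.41 in Ikaros and 5.41, 5.88 and 5.97 in control libraries. The 6 values formed a tight low and a separate high group, with a difference of -1.44 (SE 0.23, limma adjusted p = 0.00371), and it stayed called in 16 of 19 alternative fits. The median over all DHS called lower was 8 of 19. Another DHS between genes, with n-TRcct2 (chr17:23548766-23548955), was at 5.44, 5.62 and 5.67 in Ikaros and 6.43, 6.49 and 6.62 in control cells, a difference of -0.93 (SE 0.18, limma adjusted p = 0.0126). Other gene families of protein synthesis and of RNA polymerase III were set beside these. Of all promoter DHS, 0.586% were called lower, so 0 calls in a family of this size say little. The median of all promoter DHS was -0.11, and it was 0.03 after removal of trends and -0.03 under quantile normalization. The 81 promoter DHS of cytosolic ribosomal protein genes had a median of -0.08 with 0 called, which turned to 0.12 after removal of trends and 0.06 under quantile normalization. The 24 of cytosolic aminoacyl-tRNA synthetases had -0.21 with 0 called, and -0.01 and -0.08 under these settings. The 10 of RNA polymerase III subunits had -0.11, turning to 0.11 and 0.07, and 1 of them was called lower, at Polr3e, which holds the transfer RNA gene n-TLaag4. The 8 DHS at other short genes that this polymerase transcribes had a median of -0.14 with 0 called, turning to 0.08 and 0.03. The difference between these families was not tested.

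**Figure D3:**
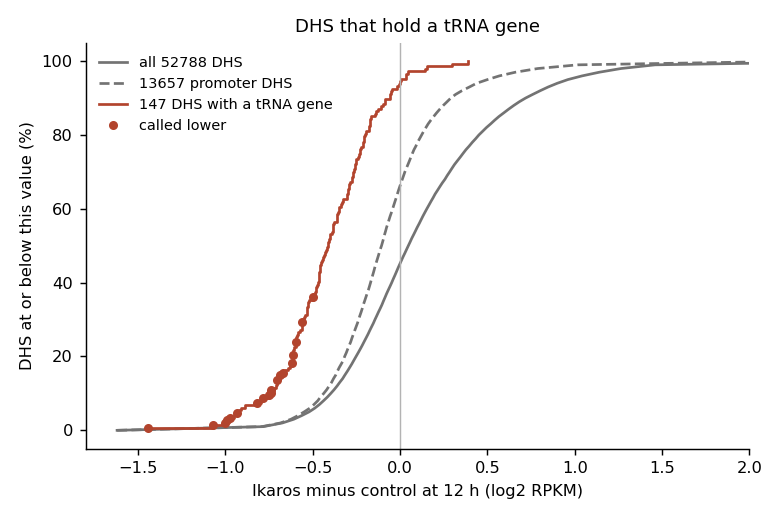
Share of DHS at or below each difference between Ikaros and control at 12 h (log2 RPKM), for 147 DHS that hold a transfer RNA gene, for all DHS and for promoter DHS. Points are the 19 DHS called lower. The red line runs to the left of both grey lines, and 93.9% of it lies below 0.

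Promoters of genes for growth and amino acid uptake were among those less open in Ikaros cells. The Myc promoter was at 4.26, 4.60 and 4.52 in Ikaros and at 4.97, 5.16 and 5.20 in control libraries. Myc, which drives growth and division of pre-B cells, thus had no overlap between the lines, with a difference of -0.65 (SE 0.14, limma adjusted p = 0.0222). Ccnd2, the D-type cyclin that carries pre-B cells into S phase, had a promoter DHS (chr6:127150980-127151110) at 4.68, 5.11 and 5.08 against 5.57, 5.88 and 5.93. It fell by 0.84 in the fit without batches (SE 0.21, adjusted p = 0.0417) and had an adjusted p of 0.0532 with batch as a block. The cell cycle list had 32 promoter DHS, of which these 2 were called lower and 0 higher, where 0.586% of all promoter DHS were called lower and 0.198% higher. Of the 32, 28 were below 0, as were 66.2% of all promoter DHS. The median of the list was -0.29, against -0.11 for all promoter DHS, and it was -0.09 after removal of trends.

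Slc3a2 encodes the heavy chain that carries the leucine transporter Slc7a5 to the membrane. Its promoter DHS (chr19:8712912-8713089) was at 4.93, 5.03 and 4.96 in Ikaros and at 5.29, 5.94 and 6.07 in control libraries. The difference of -0.79 (SE 0.20, adjusted p = 0.0388) had an adjusted p of 0.0521 with batch as a block. Slc7a5 had a called DHS in an intron (chr8:121898330-121898943), lower by -0.59 (SE 0.14, adjusted p = 0.0272), while its promoter DHS differed by -0.26 and was not called. Of the 18 promoter DHS of the amino acid list, 1 was called, where 0.783% of all promoter DHS were called. Below 0 were 15 of the 18, as were 66.2% of all promoter DHS. The median of the 18 was -0.25, and -0.05 after removal of trends.

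Further amino acid genes were seen among the calls only after their values were known. The promoter of Slc43a2, a transporter of large neutral amino acids, had levels of 4.63, 4.90 and 5.02 in Ikaros and 5.72, 5.77 and 6.34 in control libraries. Its difference was -1.09 (SE 0.27, limma adjusted p = 0.0398, and 0.0521 with batch as a block). Promoters of Slc1a4, a carrier of alanine and serine, and of Aldh18a1, an enzyme of proline synthesis, fell by 0.61 and 0.68. Eif4ebp1, a brake on translation that mTOR lifts, and Eef2k, the kinase that slows elongation, fell by 0.84 and 0.82. With batch as a block Eif4ebp1 had an adjusted p of 0.0566. Solute carrier genes as a family had 6 of 220 promoter DHS called lower (2.73%, against 0.586% of all promoter DHS) and 1 higher, with a median of -0.12 that turned to 0.01 after removal of trends.

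Promoter DHS of glycolysis genes lay below 0 with no call. Of 28 such DHS, 27 were negative, with a median of -0.38. Of all promoter DHS, 66.2% were negative, with a median of -0.11. An unadjusted p under 0.05 in limma was reached by 11 of the 28, and by 1742 of all 13657 promoter DHS. The adjusted threshold was passed by 0 of the 28, where 0.783% of all promoter DHS passed it. The largest was at Gapdh, at 4.46, 4.83 and 4.71 in Ikaros and 5.60, 5.79 and 5.91 in control libraries. These did not overlap, and the difference was -1.10 (SE 0.33, adjusted p = 0.0812). The median of the list was -0.16 after removal of the trends and -0.52 at its lowest over the scalings and left-out libraries, and it was below 0 in all of them.

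Calls in the lists of B-lineage transcription factors and of pre-B receptor genes were in introns. Whether they were more frequent there than at promoters was not tested. Of all DHS, 0.198% of those at promoters were called higher and 0.586% lower, and 1.21% and 0.289% of those in introns. None of the 38 promoter DHS of the B-lineage transcription factor list was called, and its median of -0.10 turned to 0.00222 under quantile normalization and 0.03 after removal of trends. Of the list's 140 DHS in gene bodies, 2 rose and 1 fell. Mef2c, a factor of pre-B cell differentiation, had an intronic DHS at 5.03, 4.31 and 4.95 in Ikaros and 1.95, 3.45 and 3.07 in control libraries. It was higher in every Ikaros library, by 1.94 in the mean (SE 0.44, limma adjusted p = 0.0253). Ebf1, which sets the B-cell fate, had an intronic DHS (chr11:44881238-44881750) at 5.72, 5.80 and 5.94 against 5.13, 5.24 and 5.15. That is a rise of 0.65 (SE 0.14, adjusted p = 0.0212). An intronic DHS of Myb (chr10:21157993-21158493), a factor of cycling progenitors, fell by 0.62 (SE 0.14, adjusted p = 0.0255).

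In the pre-B receptor list 0 of 19 promoter DHS were called (median -0.17), where 0.783% of all promoter DHS were called. The promoter of Igll1, a part of the surrogate light chain that Ikaros is known to silence, was at 4.86, 4.73 and 4.92 in Ikaros and 5.25, 5.81 and 5.68 in control libraries. There was no overlap, but the difference of -0.74 did not pass the threshold (SE 0.20, adjusted p = 0.0612). Of 38 DHS in gene bodies, 1 was called higher and 1 lower. Over all 39131 DHS away from promoters, 441 were called higher and 146 lower. The Src kinase gene Blk had an intronic DHS (chr14:63377335-63377835) that was at 3.81, 3.70 and 4.11 against 1.89, 3.03 and 2.50. It differed by 1.40 (SE 0.35, adjusted p = 0.0396, and 0.0558 with batch as a block). An intronic DHS of Pik3cd (chr4:149696458-149696987), the kinase subunit that signals from the receptor, fell by 0.82 (SE 0.20, adjusted p = 0.0336). Pik3r1, which encodes its regulatory partner, had a called intronic DHS as well (chr13:101694103-101694238; -1.20, SE 0.25, adjusted p = 0.0174), seen only after its value was known.

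The interleukin 7 receptor list had 21 promoter DHS with 1 call, where 0.783% of all promoter DHS were called. Cish, a feedback inhibitor that STAT5 switches on, had a promoter DHS at 4.01, 4.01 and 4.27 in Ikaros and 4.64, 4.60 and 4.83 in control libraries. The difference was -0.59 (SE 0.15, limma adjusted p = 0.0458, and 0.0655 with batch as a block). The list's median was -0.15, and -0.06 after removal of trends. Of its 21 DHS, 18 were below 0, as were 66.2% of all promoter DHS.

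Adhesion genes had 0 of 13 promoter DHS called, where 0.783% of all promoter DHS were called. Away from promoters, 441 of 39131 DHS were called higher and 146 lower. Of 28 DHS in the bodies of adhesion genes, 2 were called higher, both in introns of Itga5, the alpha chain of the fibronectin receptor. The stronger (chr15:103361398-103361578) was at 4.45, 4.78 and 4.94 in Ikaros and 3.61, 2.65 and 3.16 in control libraries. Ikaros cells were higher in each replicate, by 1.58 in the mean (SE 0.31, adjusted p = 0.0117). The other (chr15:103355490-103355620) was higher by 1.69 (SE 0.43, adjusted p = 0.0444, and 0.0521 with batch as a block). At 0 h the same DHS differed by -0.03 and -0.58.

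**Figure D4:**
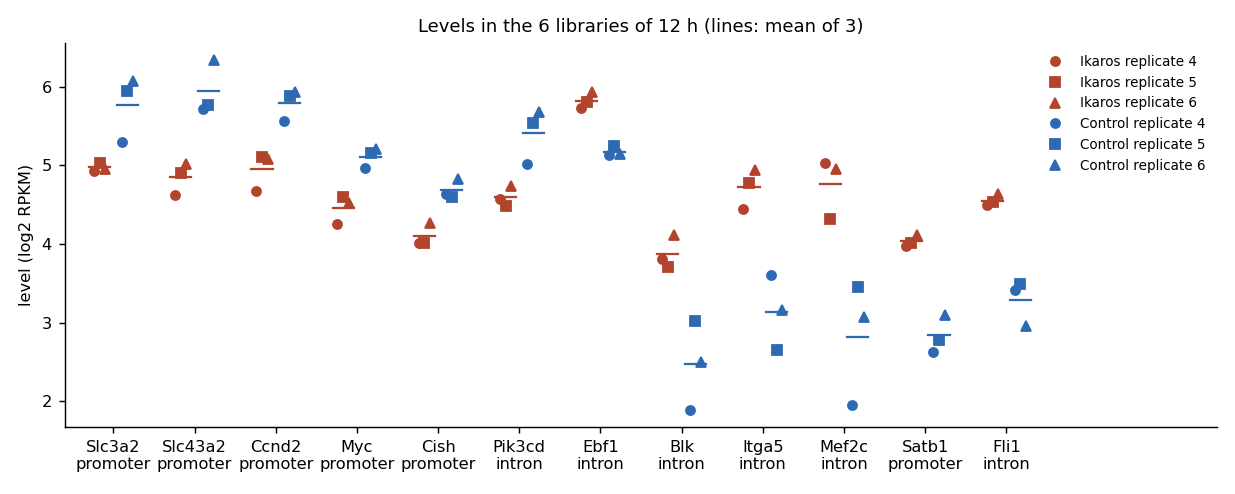
Levels (log2 RPKM) of 12 called DHS in the 6 libraries of 12 h. Symbols are the replicates, colours the lines, and short lines the mean of 3. In all 12 the Ikaros points lie on 1 side of the control points, below them for the 6 DHS on the left and above them for the 6 on the right.

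The recombination, Foxo, Notch, MHC class II, Bcl2 family and housekeeping lists had no call at promoters or in gene bodies. Among recombination genes, the largest promoter difference was at Lig4, the ligase of end joining (chr8:9975413-9975498; 1.35, SE 0.54, adjusted p = 0.201). The other Lig4 promoter DHS differed by -0.12 and -0.03. The largest values elsewhere were -0.57 at S1pr1 for the Foxo list, -0.40 at Hes1 for the Notch list, -0.79 at H2-Ab1 for MHC class II, -0.62 at Bak1 for the Bcl2 family and -0.41 at Ppia for housekeeping genes. Of the 12 promoter DHS at marker loci of the study, 11 were below 0, as were 66.2% of all promoter DHS. The 1 that was called was at Myc, where 0.783% of all promoter DHS were called. The median of the 12 was -0.22 and turned to 0.02 after removal of trends. Of 23 DHS in the bodies of the marker genes, 2 were called higher and 1 lower. Over all 39131 DHS away from promoters, 441 were called higher and 146 lower. The 2 called higher were the exonic DHS of Ikzf1, where reads from the vector and from the gene cannot be told apart. The medians were -0.12 for recombination, -0.10 for Foxo, -0.19 for Notch, -0.25 for adhesion, -0.07 for MHC class II, -0.16 for the Bcl2 family and -0.11 for housekeeping genes. Those of recombination, Foxo and housekeeping genes changed sign under quantile normalization and after removal of trends, and that of MHC class II without control replicate 4.

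Markers of the labelled cell type were checked at their promoters. Of 9 B-lineage marker genes, 8 had a promoter DHS in the table. The summed levels of their 9 promoter DHS were 292 to 321 RPKM in Ikaros and 290 to 426 RPKM in control libraries. Of 16 genes of other cell types, 3 (Lyz2, Klf1 and Pf4) had 1 each. These 3 DHS had summed levels of 42.8 to 44.9 and 39.9 to 49.4 RPKM, and 0 of them were called. The sums cover 9 and 3 DHS, so their sizes cannot be set against each other. An intronic DHS of Itgam, the integrin chain of myeloid cells (chr7:128100668-128101290), was higher in Ikaros cells by 0.95 (SE 0.19, limma adjusted p = 0.0134). Itgam had no promoter DHS in the table.

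Some of the largest gains were far from any gene in these lists. The DHS with the largest difference (chr1:149809686-149809825), between genes, was at 4.54, 3.91 and 4.42 in Ikaros and at 0.81, 1.93 and 1.81 in control libraries. It stood 2.77 higher (SE 0.65, limma adjusted p = 0.0312) and had 28.6% GC. Next after Ikzf1 came the intergenic DHS on chromosome 3 printed above, at 3.92, 3.04 and 3.25 against 0.81, 0.76 and 0.77. An exonic DHS of Rars2, the mitochondrial arginyl-tRNA synthetase, differed by 2.57 and an intronic DHS of Eml5 by 2.55. Intergenic DHS on chromosome 2 (chr2:56109630-56109766) and on chromosome 6, printed above, an exonic DHS of Gm19585 and an intronic DHS of Etfa lay between 2.22 and 2.28. The largest gain at a promoter was at Plekho1, with 2.31 (SE 0.54, adjusted p = 0.0307), a DHS of 80.9% GC. Tmtc1 had 3 DHS called higher, of which the strongest (chr6:148344835-148345344) was at 4.43, 4.30 and 4.37 against 2.60, 1.87 and 2.29. Its difference was 2.11 (SE 0.28, adjusted p = 0.000392), and it was called in 16 of 19 alternative fits. The median over all DHS called higher was 8 of 19. The largest gain, on chromosome 1, was called in 8 and the intergenic DHS on chromosome 3 printed above in 6.

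Among promoters whose gain was seen only afterwards, that of Satb1, a chromatin organiser of lymphocytes, was at 3.97, 4.02 and 4.11 against 2.63, 2.78 and 3.10. It was higher by 1.20 (SE 0.24, limma adjusted p = 0.015). Cd53, a tetraspanin of leukocytes, was higher by 0.74 (adjusted p = 0.0422, and 0.0565 with batch as a block) and Pdcd1, the inhibitory receptor PD-1, by 1.89 (adjusted p = 0.0376). An intronic DHS of Fli1 (chr9:32425408-32425932), an Ets factor of blood cells, was higher by 1.27 (SE 0.21, adjusted p = 0.00394), with a difference of 1.51 at 0 h.

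The largest losses included the DHS with n-TTtgt4 and sites in introns. The DHS in 4930470P17Rik, printed above, was at 3.55, 4.36 and 3.94 in Ikaros and at 5.14, 5.79 and 5.43 in control libraries. All Ikaros values were below all control values, the difference was -1.50 (SE 0.24, limma adjusted p = 0.00371), and 17 of 19 alternative fits called it. A DHS in an intron of 1700113H08Rik differed by -1.54 (SE 0.37, adjusted p = 0.0319) and the shared promoter of Chp1 and Exd1 by -1.43. The promoter of Ssc5d and intergenic DHS at chr5:146647800-146647947 and chr12:70140640-70140811 differed by -1.34, -1.34 and -1.29. An intronic DHS of Ppp1r18, printed above, was at 4.53, 4.81 and 4.42 against 5.40, 6.21 and 5.97, and fell by 1.27 (SE 0.30, adjusted p = 0.0297). An intronic DHS of Tmem121 (chr12:113187631-113187801) fell by 1.31 (SE 0.22, adjusted p = 0.00447). The promoters of the histone genes Hist1h4j and Hist1h4k fell by 1.33 and 1.20. They were the 2 called among 40 promoter DHS of such histone genes, or 5%, against 0.586% of all promoter DHS called lower. The median of the 40 was -0.05, and it was 0.08 under quantile normalization. By the mapping options in the methods, reads that align equally to more than 1 histone copy were left out.

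The promoters of Tnf and Egr1 were also called lower, and both were picked out after their values were known. Tnf, an inflammatory cytokine gene whose promoter sequence is printed above, was at 4.89, 4.86 and 4.91 in Ikaros and 5.58, 5.78 and 5.95 in control libraries (-0.88, SE 0.20, limma adjusted p = 0.0271). Egr1, an early response factor of receptor signalling, was lower by -0.88 (SE 0.15, adjusted p = 0.00532) and was called in 16 of 19 alternative fits. Grb10, an adaptor of growth factor receptors, had 3 intronic DHS called lower, by -0.85, -0.73 and -0.64. The first of them had an adjusted p of 0.0568 with batch as a block.

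Motif content of the DHS called lower and higher was read for several factors. In the central 150 bp, read on both strands, the Ikaros motif TGGGAA was present in 18.6% of DHS called lower, 8.97% of those called higher and 13.2% of all. The core GGGAA, which every TGGGAA contains, was in 50.4%, 28.2% and 38.4%. Ebf1 matches were in 24.3% of DHS called lower, 5.98% of those called higher and 10.5% of all. Runx matches ran the other way, with 10.2%, 29.5% and 18.3%. Shares were close for the E box of Myc, CACGTG (3.98% of lower and 4.06% of higher), the E box of E proteins, CAGCTG (14.2% and 13.7%), and AP-1, TGANTCA (7.52% and 7.05%). The differences in share were not tested.

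GC content differs between these sets (medians of 55.6% for lower and 40.0% for higher), so the shares were also read among DHS of 45 to 60% GC, a limit chosen after the data were seen. There the Ikaros motif was in 20.2% of 168 DHS called lower, 8% of 100 called higher and 14.6% of all. Ebf1 was in 24.4%, 9% and 11.5%, and Runx in 13.1%, 32% and 19.3%. The CTCF core was searched after several of the largest gains were seen to hold it. It was in 4 of the 10 largest gains and 0 of the 10 largest losses, but in 20.3% of all 468 DHS called higher, close to the 19.6% of all DHS. Among DHS of 45 to 60% GC the core was less frequent in both called sets than in all. The shares there were 13% of those called higher, 10.7% of those called lower and 20.1% of all. Away from promoters it was in 21.3% of DHS called higher and 24.2% of all. A match is only a stretch of letters, and binding was not measured.

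DHS called at 12 h differed between the lines in the same direction at the later times and at 2 h and 6 h, and less or the other way at 0 h. Since they were picked by their values at 12 h, this is a description. The times are also not independent measurements in the corrected table, as given below. For the 468 called higher, the median difference over 0, 2, 6, 12, 18 and 24 h was -0.19, 0.46, 0.45, 1.32, 0.80 and 1.27. For the 226 called lower it was 0.21, -0.45, -0.47, -0.80, -0.58 and -0.82. Levels moved in both lines. For the DHS called higher, the median level over 0, 12 and 18 h was 3.61, 2.72 and 3.22 in control cells and 3.40, 4.07 and 4.04 in Ikaros cells.

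**Figure D5:**
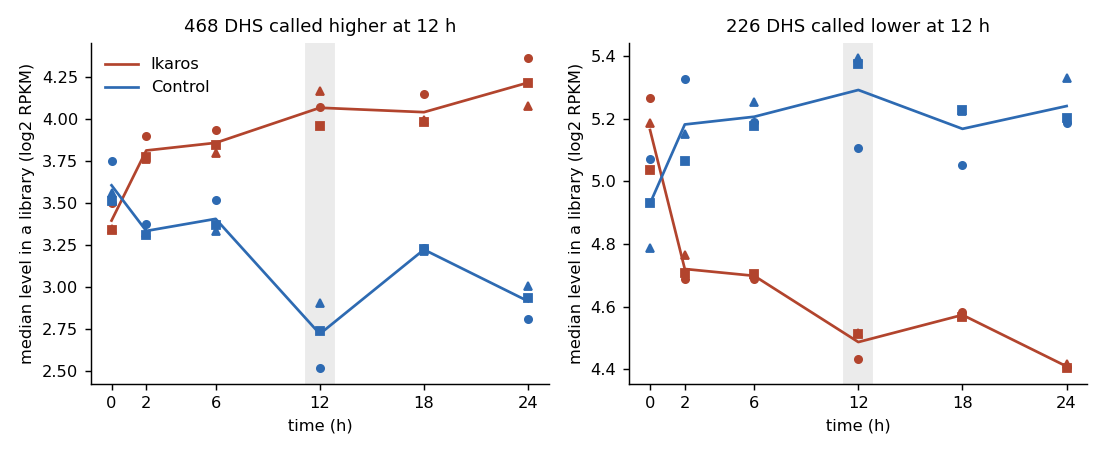
Median level (log2 RPKM) in each library of the DHS called higher (left) and lower (right) at 12 h, over 0 to 24 h. Points are single libraries, lines the mean of 3 and the grey band the time by which the DHS were chosen. In the left panel the control line is lowest at 12 h, at 2.72.

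The line difference at 12 h was tested against that at other times. It differed from the difference at 0 h at 6666 DHS (12.6% of those tested; 3179 changed upward and 3487 downward), from 6 h at 1 DHS (0.00189%), and from 18 h and 24 h at 0 DHS (0% each). The DHS with an unadjusted p under 0.05 numbered 15569, 3493, 745 and 0 for 0, 6, 18 and 24 h. Fitting the 4 groups of the contrast alone left 21 calls against 0 h and 1 against 18 h. By the methods the 0 h cells were collected separately, which cannot be told apart from time. The 12 group means of the corrected table span 6 dimensions where 11 are possible, so the difference at 12 h and that at 24 h are not independent measurements, and the 0 calls between them do not show that they were alike. The DHS that differed from 6 h (chr14:110892992-110893121), between genes, was at 4.04, 4.12 and 4.18 in Ikaros and at 1.93, 1.81 and 2.22 in control libraries at 12 h. Its difference was 2.13 at 12 h and -0.88 at 6 h.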

How the data were processed

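Per the study's methods and the submitters' notes, the authors aligned reads to mm10 with Bowtie, used HOMER to call peaks per replicate, then merged these peaks and counted the reads of each DHS with bedtools. They deposited log2 values of RPKM after TMM scaling and ARSyN noise correction, which models the groups. Counts were not used here and depth is unknown, so values carry no counting interval. Read back from base 2, the values times DHS width sum to 371841 to 415522 RPM in the 12 h libraries.

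Differences were fitted with limma 3.58.1 in R 4.3.3 (12 group means, 36 libraries, eBayes with trend, two-sided, adjusted over 52788 DHS). Contrasts were Ikaros minus control at 12 h, and that minus the same at 0, 6, 18 and 24 h. The fit was tested on simulated data at 12 h: with 200 of the 52788 DHS changed, 34.5% were recovered at a log2 change of 1, with 6 false calls, and 87.5% at 2, with 12. The simulated noise was independent, with the same spread in all groups. In the deposited values control libraries of 12 h varied more than Ikaros libraries, so these counts need not hold for them. Genes and exons came from GENCODE M21, whose fit to the build was checked by moving all DHS by 10000 bp (promoter share 25.9%, then 7.76%). Named DHS are the 10 largest in each direction with non-overlapping lines, called DHS of 16 gene lists (at most 3 in each direction, or the largest promoter difference where none was called), promoters of the study's marker loci, and the 3 largest changes in each direction of each contrast between times. All DHS of Ikzf1 and the others said to be seen after their values were added. The members, lists and motifs were chosen with earlier results of these data known. The labels give each replicate number as a batch, which pairs the lines. Deviations of same-numbered libraries of 12 h correlated at 0.0412 to 0.183 over DHS, those of other pairs at -0.23 to 0.06. Alternatives were other scalings, moderation, library weights, samples, filters, trend removal, a replicate block and leaving out libraries.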

Additional observations from a re-analysis of the deposited data

Results flagged for a closer look

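These results were picked out because the difference between the lines at 12 h was itself tested against that at another time and passed the adjusted threshold in limma. Against 0 h, 6666 DHS passed, and against 6 h, 1 DHS. The largest changes upward from 0 h to 12 h were 4.50 at the intergenic DHS chr1:149809686-149809825, 3.97 at chr3:123806184-123806314 and 3.93 at chr6:3444019-3444149, both between genes. At the first the line difference went from -1.73 to 2.77. The largest downward were at promoters, with -3.85 at Nectin2 (an adhesion protein), -3.31 at Kat6b (a histone acetyltransferase) and -3.10 at Smarcc2 (a subunit of the BAF remodelling complex). These 3 had differences of 2.23, 2.66 and 2.80 at 0 h, and at 12 h they were not called (-1.62, -0.65 and -0.30). The DHS that changed from 6 h, chr14:110892992-110893121, did so by 3.01. By the methods the 0 h cells were collected separately, and time and collection cannot be told apart.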

How the results depend on the processing

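The count of 694 DHS called at 12 h became 1275 without the 0 h libraries, 1083 with library weights, 379 without the lowest 25% by mean level, 319 under quantile normalization, 129 after removal of trends and 0 from the 6 libraries of 12 h alone. Leaving out single libraries, or a replicate number in all groups, gave 8 to 686. With the replicate block it was 477. The cause of these changes was not tested. The 6666 DHS that differed from 0 h became 3457 under quantile normalization, 3131 with library weights, 571 after removal of trends and 21 from the 4 groups alone, and 595 to 8489 with libraries left out. The 1 DHS that differed from 6 h was 0 under quantile normalization, library weights and removal of trends, and 0 to 3 with libraries left out. For 18 h the count of 0 became 1 from the 4 groups alone, and was 0 to 1 with libraries left out; for 24 h it was 0 throughout. Of 56 named DHS called at 12 h, 0 changed direction in any of 19 alternatives. The lines did not overlap in 465 of the 468 DHS called higher and 225 of the 226 called lower. Without overlap, leaving out or weighting libraries cannot turn the direction, so this count is no measure of stability. Of the 56 named DHS, 40 lost the call after removal of trends and 9 with the replicate block. Without an Ikaros library of 12 h, 35 to 45 lost it, and without a control library of 12 h, 12 to 28. After removal of trends the promoter DHS of Myc, Ccnd2, Slc3a2, Slc43a2, Cish and Satb1 were not called. Nor were the intronic DHS of Mef2c, Ebf1 and Blk, while the stronger of Itga5, that of Fli1 and the Egr1 promoter were. Cish was called in 3 of 19 alternatives, Ccnd2 and Blk in 5, and Slc3a2 and Slc43a2 in 7.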
